A study of Mus musculus with 18 samples.

Results

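The genes described here are 38 genes that respond to interferon, measured in cultured mouse astrocytes. They were taken by symbol from a list chosen with earlier results of these data known. All 38 symbols matched a row of the deposited table of 26301 genes, and all 38 passed the filter on low counts. Astrocytes, the glial cells that support neurons, came from the cortex of newborn (P0) mice and had spent about 2 weeks in culture. They were then kept alone or given hippocampal neurons of newborn TdTomato-positive mice, and were collected 2, 4 or 7 days later and sorted by TdTomato fluorescence, with the astrocytes kept alone setting the gate for negative cells. This makes 6 groups of 3 libraries, with one replicate of each group per replicate number. The labels name no strain, no sex and no promoter for TdTomato, and no group received interferon. They give the 6 libraries of a replicate number the same date. It is called the culture date here, although the sample titles give only replicate number, day and kind of culture. Any other step that the libraries of a replicate number shared cannot be told apart from it. Each co-culture library has a partner kept alone of the same date and day. The title of the series gives its question as which astrocyte transcripts neuronal contact regulates.

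Interferons are secreted when a cell detects viral nucleic acid. Type I interferon binds a receptor made of IFNAR1 and IFNAR2, and the receptor's kinases activate STAT proteins that join IRF9 and bind the interferon-stimulated response element (ISRE) in the promoters of their targets. Interferon gamma acts through another receptor and a STAT dimer that binds the gamma-activated sequence (GAS). Among the targets are the pathway's own factors and sensors, so that a cell once exposed can respond more strongly. Astrocytes carry both receptors and are known to hold a low level of many of these genes at rest. The list was read in 6 roles, namely transcription factors (4 genes), sensors of foreign nucleic acid (5), antiviral effectors (16), the ISG15, ubiquitin and ADP-ribose system (7), antigen presentation (3) and other induced genes (3).

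The type I element was looked for in the promoters of the 38 genes. RefSeq promoters of build GRCm38.p6, each 300 bases long (250 before and 50 after the annotated start), were at hand for 29 of the 38 genes. The core of the ISRE, searched as GAAANNGAAA and its complement TTTCNNTTTC on either strand, was present in 13 of these 29 (44.8%), against 1079 of all 27025 genes with a promoter in the table (3.99%). The core of the GAS, searched as TTCNNNGAA, which reads the same on both strands, was present in 7 of 29 (24.1%), against 9.55% of all genes. A match is a description of the letters in this window. The 9 genes below are all those of the 13 with a match before their start. In Ifih1, Ddx58, Ifitm3 and Eif2ak2 the matches lie after it. Isg15, Rsad2, Bst2, Oas1a and B2m are among the genes whose differences between culture dates are given further on. Capitals mark the matches, sequences run 5′ to 3′ on the strand of the gene, and coordinates are GRCm38.p6, whereas the reads had been counted on mm9, whose coordinates differ.
Isg15 (chr4:156200863-156200908, minus strand): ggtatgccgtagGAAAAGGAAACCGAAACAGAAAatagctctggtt
Ifit1 (chr19:34640773-34640825, plus strand): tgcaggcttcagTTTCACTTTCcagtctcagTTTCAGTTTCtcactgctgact
Ifit3 (chr19:34583361-34583428, plus strand): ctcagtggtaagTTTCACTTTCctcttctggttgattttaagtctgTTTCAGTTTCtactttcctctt
Oas1a (chr5:120907526-120907557, minus strand): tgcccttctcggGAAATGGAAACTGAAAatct
Rsad2 (chr12:26456551-26456584, minus strand): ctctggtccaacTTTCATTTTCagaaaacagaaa
Bst2 (chr8:71537575-71537614, minus strand): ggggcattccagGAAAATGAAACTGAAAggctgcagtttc
Stat2 (chr10:128270264-128270297, plus strand): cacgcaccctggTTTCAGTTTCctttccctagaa
Ddx60 (chr8:61928022-61928086, plus strand): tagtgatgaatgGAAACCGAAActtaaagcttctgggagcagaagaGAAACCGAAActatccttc
B2m (chr2:122147536-122147569, plus strand): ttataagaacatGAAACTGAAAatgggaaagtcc
Isg15 holds 3 overlapping matches, with first bases from −78 to −66 relative to the start. In Oas1a 2 overlapping matches begin at −20 and −14, and in Bst2 2 begin at −130 and −124. The match of B2m, the light chain of MHC class I, begins at −139.

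Values are read counts scaled to library size with TMM factors (CPM). Total counts ran from 3242459 to 32623556 reads per library. Poor libraries were found in replicate 1, the one of day 2 alone and the one of day 7 with neurons, with 92.5% and 40.5% of their reads on a single gene. The floor, set at 3 reads, was 20.2 CPM in the first and 0.504 CPM in the other, against 0.0743 to 0.179 CPM in the remaining 16, and covers counting error only. In the first of these libraries 8 of the 38 genes lay under the floor, 2 (Oas1a and Zbp1, both at 0 reads) did so in the day 4 co-culture of replicate 3, and in the others 0 did. The 8 were Dhx58, Zbp1, Mx1, Mx2, Oas2, Psmb9, Ifi35 and Xaf1, with 0 to 2 reads each, so their values in that library give no level. Per length, as CPM per kilobase of exon (RPKM, median of the 16 other libraries), B2m was the most abundant of the 38 at 259, followed by Ifitm3 at 241, Ifit3 at 155 and Ifit1 at 93.0. At the low end were Oas2 at 1.31, Zbp1 at 1.18 and Mx1 at 0.415. Astrocyte markers had reads throughout, 9 or 10 of 10 in every library. In bulk RNA a lower share of cells that express a gene and less RNA per cell cannot be told apart.

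The interferon response genes were lower in 1 of the 3 replicate numbers, here called culture dates. No difference of theirs between astrocytes with and without neurons passed the test. Replicate 3 held the low values: the median over its 6 libraries was the lowest of the 3 dates for 36 of the 38 genes, and the exceptions were Irf1 and Eif2ak2, lowest in replicate 1. Over the 16 libraries left without the poor ones, the lowest value of a gene lay in replicate 3 for 33 genes and in the day 7 library alone of replicate 2 for the remaining 5. Of the 33, 12 lay in the day 4 co-culture of replicate 3, which had a read in 85.4% of the tested genes, the lowest share of the 16. The mean log2 CPM over the 38 genes ran from 4.22 to 4.91 in the 6 libraries of replicate 3. In replicate 1 it ran from 6.00 to 6.62 in the 4 libraries of normal quality, and was 5.23 and 5.81 in the poor ones. Replicate 2 stood at 6.08 to 6.60 in 5 libraries and at 4.39 in the sixth, astrocytes alone at day 7.

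**Figure D1:**
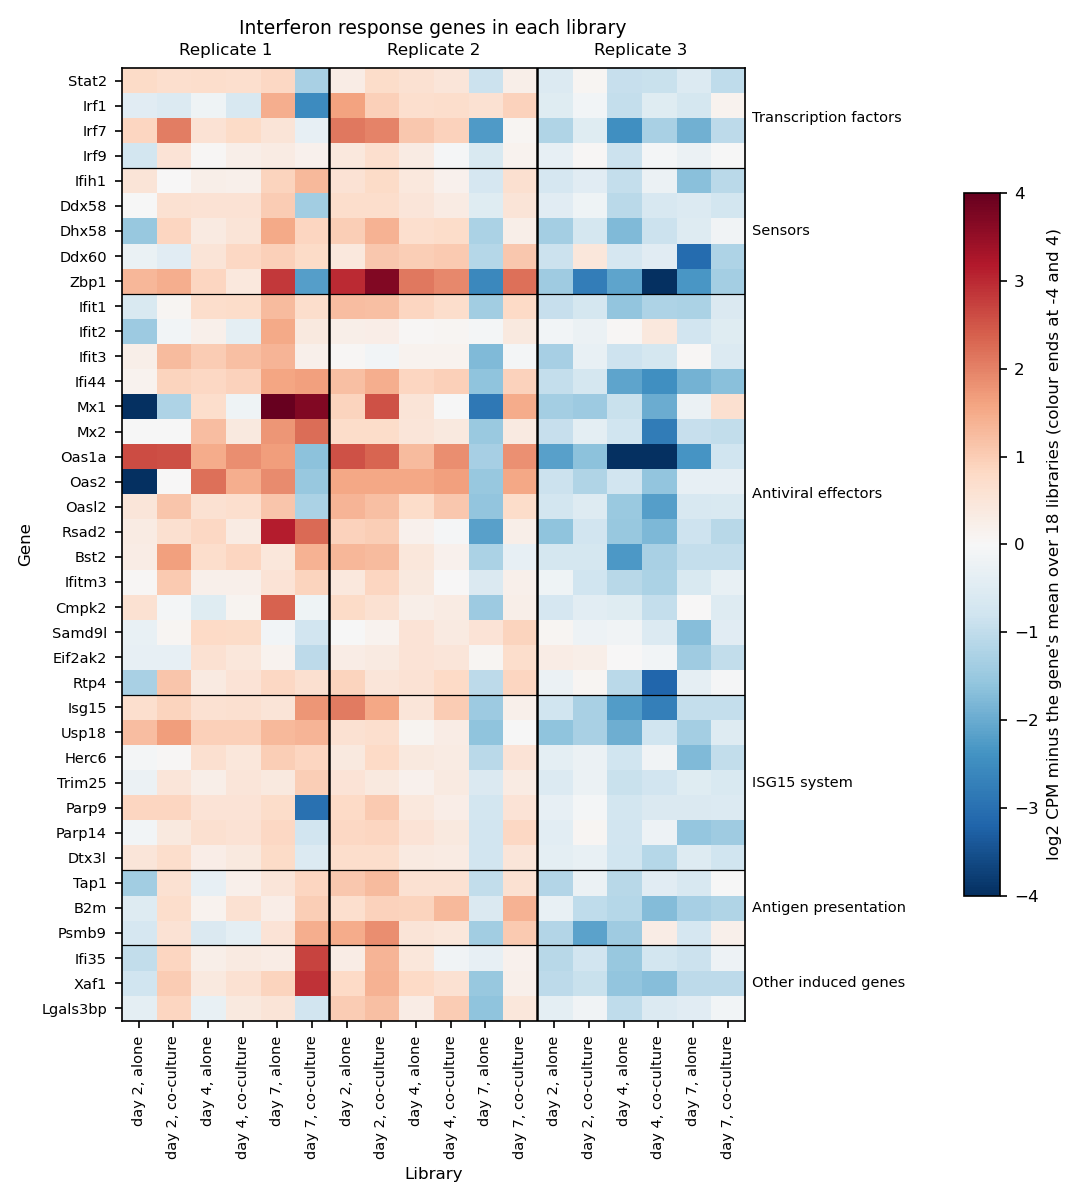
Each row is a gene and each column a library, ordered by replicate number, day and kind of culture; colour is the log2 CPM minus the gene's mean over the 18 libraries, in log2 units, cut off at −4 and 4. The 6 columns of replicate 3 and the column of replicate 2, day 7, alone are mostly blue (low).

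Replicate numbers were compared in 1 model with the 6 groups as terms, by edgeR's quasi-likelihood test with Benjamini-Hochberg adjustment over all 16539 genes tested, called at an adjusted p under 0.05. Since each number is 1 date, the test compares these 3 dates and its spread is that between the libraries of a date. Against replicate 1, 21 of the 38 genes were called lower in replicate 3, where 1.9% of all genes were, and none was called higher. The median log2 fold change of the 38 was −1.45, against −0.019 over all genes, and all 38 were fitted lower. Against replicate 2, 18 of 38 were called lower (2.48% of all genes), with a median of −1.28 against −0.043 and all 38 fitted lower. These comparisons share the replicate 3 libraries. Between replicate 2 and replicate 1 no member was called (1.46% of all genes were), and the median was −0.042 against 0.055 over all genes. An unadjusted p under 0.05 was found for 4 of the 38 and for 11.1% of all genes, and DESeq2 called 2 members. Without the 2 poor libraries 26 and 29 of the 38 were called lower in replicate 3 (2.88% and 4.53% of all genes), all of the 21 and the 18 among them. With the day 2 or the day 4 libraries left out 1 member was called against replicate 1 and 0 against replicate 2, where 18 and 17, and 1 and 33, of all genes were called, with medians over the members from −1.57 to −1.06. The single member called was Ifi44 without day 2 and Usp18 without day 4. With the day 7 libraries left out 28 and 35 were called. For this fit and for the following ones without a library, the share of all genes called is not given here. A change in these counts may therefore be one in calls generally. Against replicate 1 the count was 12 without the day 4 library alone of replicate 3. Against replicate 2 it was 7 without each of the libraries alone at day 2, co-culture at day 2 and alone at day 4 of replicate 2 or alone at day 4 of replicate 3. It was 8 without the day 4 co-culture of replicate 2 or either day 2 library of replicate 3, 9 without the day 4 co-culture of replicate 3, 29 without the day 7 co-culture of replicate 1, and 31 without the day 7 library alone of replicate 2.

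**Figure D2:**
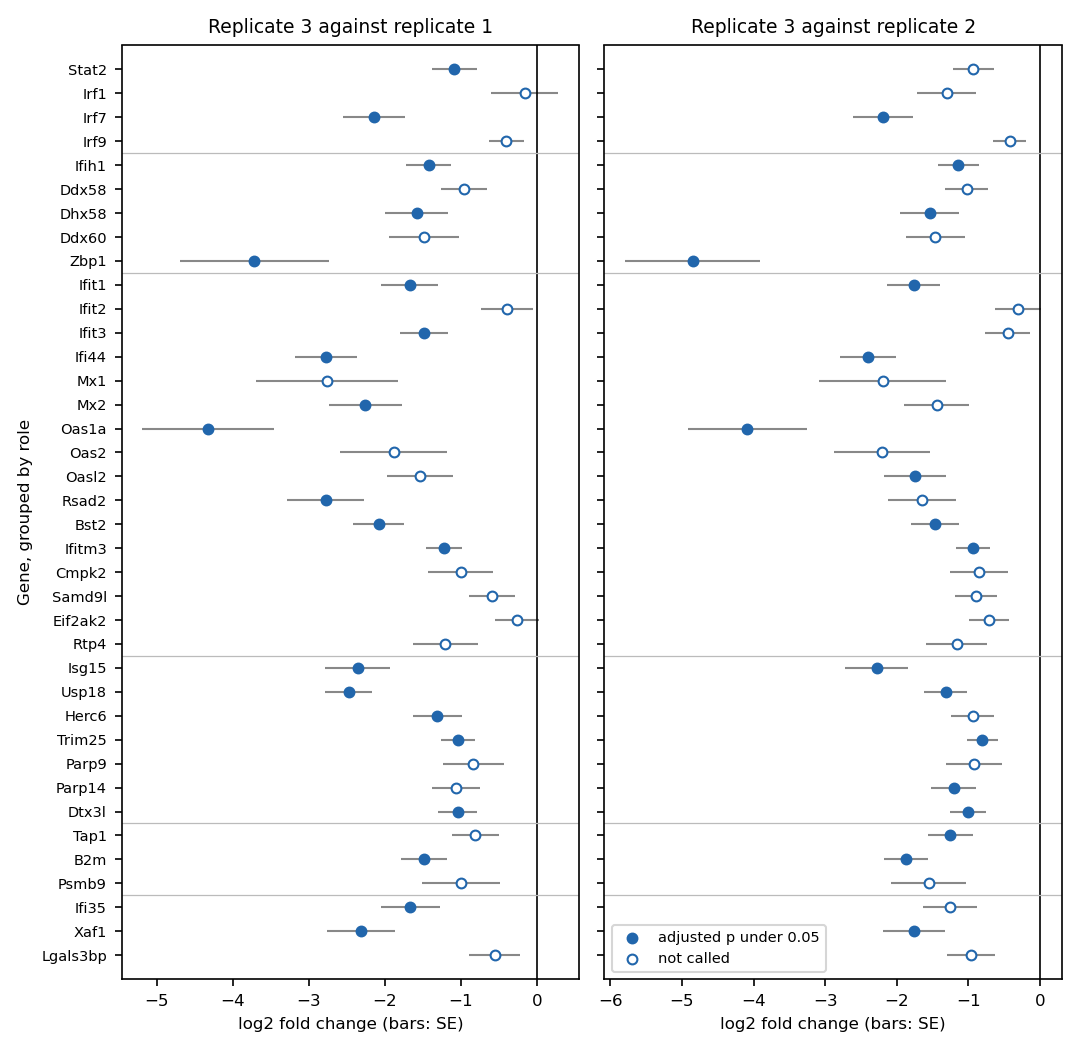
Points are the log2 fold change of each gene between replicate 3 and replicate 1 (left) or replicate 2 (right), bars the standard error, filled points genes with an adjusted p under 0.05. All 38 points lie left of 0 in both panels, with medians of −1.45 and −1.28.

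Summed markers of microglia and of astrocytes also differed between replicate numbers. Those of neurons and of endothelial and mural cells overlapped between all of them. Summed over 20 genes of microglia and macrophages, the resident immune cells that a sort by TdTomato does not remove, the level in the 16 libraries was 37.5 to 113 CPM in replicate 1, 165 to 553 CPM in replicate 2 and 37.6 to 58.3 CPM in replicate 3. Defining microglial genes had few reads in replicate 3: the complement gene C1qa had 118, 1671 and 11 reads in replicates 1, 2 and 3, the receptor Csf1r 287, 1701 and 57, Cx3cr1 213, 322 and 6, and Aif1 11, 287 and 3. P2ry12 had 5, 52 and 67, and Tmem119 46, 20 and 16, and none of the 6 was at 0 over a date. Replicates 1 and 3 overlapped in this sum. Replicate 1 alone at day 7, with the highest mean of the 38 interferon response genes, had a sum of 37.5 CPM, near the lowest of replicate 3, 37.6 CPM. The 10 astrocyte markers summed to 1018 to 2048 CPM in replicate 1, 2169 to 2695 CPM in replicate 2 and 4307 to 5825 CPM in replicate 3, without overlap and highest where the interferon response genes were lowest. The 8 neuronal markers gave 81.9 to 145, 54.9 to 155 and 98.7 to 245 CPM, and the 10 endothelial and mural markers 66.5 to 100.4, 59.4 to 97.9 and 63.5 to 113 CPM. In the poor day 7 co-culture of replicate 1 the microglial sum was 345 CPM, with 1 read each of Cx3cr1, Csf1r and C1qa and 0 of P2ry12, Tmem119 and Aif1. The part of these cells in the differences between dates was not tested.

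**Figure D3:**
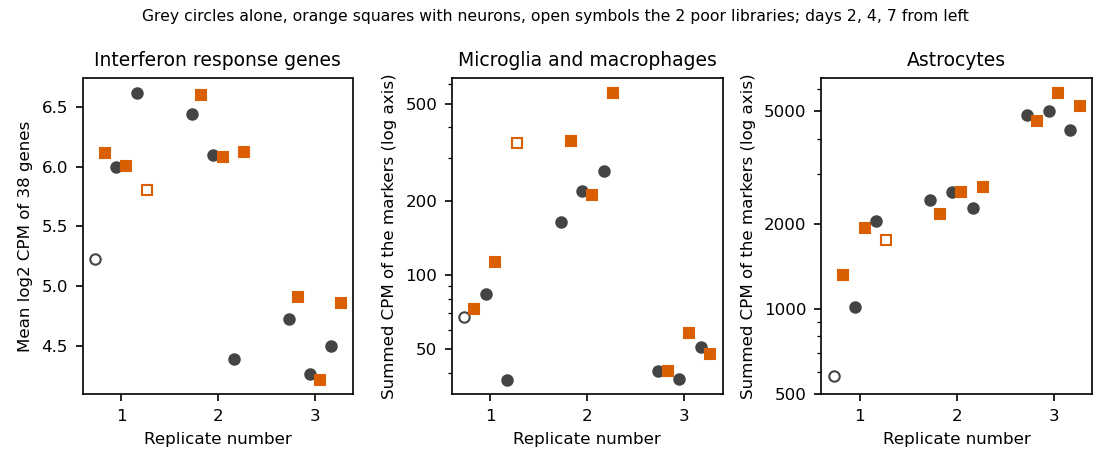
Mean log2 CPM of the 38 genes (left) and summed CPM of 20 microglia and macrophage markers (middle) and 10 astrocyte markers (right), the latter on log axes, for each library by replicate number; symbols within a number run from day 2 to day 7. Replicate 3 is low in the left panel, low in the middle one and highest, from 4307 to 5825 CPM, in the right one.

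Of the 4 transcription factors, 2 were called lower in replicate 3 than in replicate 1 (Irf7 and Stat2) and 1 than in replicate 2 (Irf7), with medians of −0.74 and −1.12. In the sentences below, values come in the order of days 2, 4 and 7. Stat2 is the STAT protein of the type I complex. Replicate 1 of Stat2 stood at 202, 193 and 209.7 CPM alone and 188, 188 and 48.2 CPM with neurons. In replicate 2 Stat2 was at 143, 181 and 64.3 CPM alone and 196, 164 and 138 CPM with neurons. In replicate 3 Stat2 was at 81.1, 62.8 and 80.4 CPM alone and 123, 64.2 and 58.9 CPM with neurons. The highest replicate 3 library of Stat2 lay below every other library but the poor day 7 co-culture of replicate 1 and replicate 2 alone at day 7. Irf7 is the factor that drives interferon alpha genes and is itself interferon-induced. In replicate 1, Irf7 was at 134, 110.1 and 105 CPM alone and 301, 126 and 58.3 CPM with neurons. In replicate 2 Irf7 was at 319.8, 154 and 15.3 CPM alone and 291, 139.6 and 77.1 CPM with neurons. In replicate 3 Irf7 was at 31.9, 13.3 and 19.4 CPM alone and 52.0, 29.9 and 35.8 CPM with neurons. All 6 replicate 3 libraries lay below all 6 of replicate 1, and the groups overlapped with replicate 2 only through its library alone at day 7. The log2 fold change of Irf7 in replicate 3 was −2.14 (SE 0.41, adjusted p = 0.00667) against replicate 1 and −2.20 (SE 0.42, adjusted p = 0.00509) against replicate 2. Irf9 is the DNA-binding partner of the type I complex. Irf9 was measured in replicate 1 at 53.8, 93.7 and 114 CPM alone and 131, 106 and 102 CPM with neurons. In replicate 2 Irf9 was at 122, 113 and 59.6 CPM alone and 144, 87.7 and 100.4 CPM with neurons. In replicate 3 Irf9 was at 71.6, 49.8 and 77.6 CPM alone and 93.9, 84.9 and 89.1 CPM with neurons. These ranges overlapped, and Irf9 was not called between any dates. Irf1, a factor that interferon gamma induces, had a lowest, median and highest value of 6.39, 26.2 and 103 CPM in replicate 1, 57.3, 65.0 and 114 CPM in replicate 2 and 19.3, 26.5 and 41.3 CPM in replicate 3. Its replicate 3 libraries all lay below those of replicate 2, the one gene of the 38 without overlap there (2.67% of all genes), yet the difference was not called (log2 fold change −1.30, SE 0.41).

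Of the 5 sensors 3 were called lower in replicate 3 against replicate 1 (Ifih1, Dhx58 and Zbp1) and 3 against replicate 2 (Zbp1, Ifih1 and Dhx58), with medians of −1.48 and −1.46. Ddx58 encodes RIG-I, a sensor of viral RNA in the cytosol. For Ddx58 replicate 1 gave 134, 206 and 276 CPM alone and 208, 206 and 52.1 CPM with neurons. In replicate 2 Ddx58 was at 223, 190.3 and 96.8 CPM alone and 223, 172 and 194 CPM with neurons. In replicate 3 Ddx58 was at 99.3, 64.0 and 92.6 CPM alone and 121, 88.1 and 82.8 CPM with neurons. Replicate 3 overlapped the other dates only through the poor day 7 co-culture and replicate 2 alone at day 7. Ifih1 encodes MDA5, which senses long double-stranded RNA. Ifih1 in replicate 1 read 94.1, 78.2 and 123 CPM alone and 67.5, 76.8 and 164 CPM with neurons. In replicate 2 Ifih1 was at 98.2, 89.0 and 41.6 CPM alone and 112, 75.0 and 103 CPM with neurons. In replicate 3 Ifih1 was at 41.8, 34.2 and 20.9 CPM alone and 48.7, 55.9 and 31.5 CPM with neurons. No replicate 3 library reached any of replicate 1, and only the library alone at day 7 overlapped from replicate 2. Ddx60 is a helicase that acts beside RIG-I. Ddx60 in replicate 1 came to 33.6, 57.4 and 78.5 CPM alone and 29.4, 71.9 and 68.8 CPM with neurons. In replicate 2 Ddx60 was at 54.2, 80.2 and 18.2 CPM alone and 84.8, 82.9 and 85.8 CPM with neurons. In replicate 3 Ddx60 was at 22.2, 25.4 and 4.72 CPM alone and 55.7, 29.3 and 17.1 CPM with neurons. The day 2 co-culture of replicate 3 reached into the range of both other dates. Zbp1, a sensor of left-handed nucleic acid, was among the rarest of the 38, with a lowest, median and highest value of 0.504, 5.76 and 19.2 CPM in replicate 1, 0.374, 12.005 and 35.5 CPM in replicate 2 and 0, 0.507 and 0.98 CPM in replicate 3. Its log2 fold change against replicate 2 was −4.85 (SE 0.94, adjusted p = 0.00573), a fitted value that rests on few reads in replicate 3. Dhx58, which encodes the regulator LGP2, stood at 6.72, 31.4 and 55.1 CPM in replicate 1, 8.02, 31.5 and 50.6 CPM in replicate 2 and 5.68, 11.2 and 17.4 CPM in replicate 3.

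Of the 16 antiviral effectors 8 were called lower in replicate 3 than in replicate 1 (Ifi44, Bst2, Rsad2, Ifitm3, Oas1a, Mx2, Ifit3 and Ifit1) and 6 than in replicate 2 (Ifi44, Oas1a, Ifit1, Bst2, Oasl2 and Ifitm3), with medians of −1.61 and −1.46. Ifit3 belongs to a family that binds viral RNA and blocks its translation. The Ifit3 level in replicate 1 was 323, 548 and 703 CPM alone and 657, 636 and 314 CPM with neurons. In replicate 2 Ifit3 was at 285, 303 and 80.6 CPM alone and 252, 305 and 258 CPM with neurons. In replicate 3 Ifit3 was at 109, 155 and 283 CPM alone and 225, 167 and 186 CPM with neurons. Replicate 3 of Ifit3 lay below all of replicate 1 and overlapped replicate 2, whose libraries were lower than those of replicate 1. Reads of Ifit3 may be shared with its near-identical copy Ifit3b, counted at 38856 reads over all libraries against 150003 for Ifit3. Ifit1 is the family member that binds RNA lacking the host's cap mark. The Ifit1 level in replicate 1 was 121, 303 and 439 CPM alone and 193, 307 and 298 CPM with neurons. In replicate 2 Ifit1 was at 431, 333 and 69.8 CPM alone and 422, 301 and 321 CPM with neurons. In replicate 3 Ifit1 was at 98.0, 60.97 and 76.7 CPM alone and 114, 78.1 and 122 CPM with neurons. Only the poor library of replicate 1 and replicate 2 alone at day 7 reached down to replicate 3. Ifitm3 hinders viral entry at membranes. The Ifitm3 level in replicate 1 was 155, 175 and 223 CPM alone and 316, 174 and 279.7 CPM with neurons. In replicate 2 Ifitm3 was at 203, 198 and 102 CPM alone and 276, 153 and 173 CPM with neurons. In replicate 3 Ifitm3 was at 133, 69.9 and 98.4 CPM alone and 87.4, 63.3 and 122 CPM with neurons. Its replicate 3 libraries lay below all of replicate 1 and below 5 of the 6 of replicate 2.

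Ifi44, a widely used indicator of interferon exposure, had a lowest, median and highest value of 60.5, 103 and 169 CPM in replicate 1, 17.97, 104 and 151 CPM in replicate 2 and 9.84, 15.9 and 33.2 CPM in replicate 3. Its log2 fold change in replicate 3 was −2.78 (SE 0.41, adjusted p = 0.0009) against replicate 1 and −2.40 (SE 0.39, adjusted p = 0.0019) against replicate 2. Bst2, or tetherin, which holds budding virus at the cell surface, stood at 60.5, 85.4 and 154 CPM in replicate 1, 20.6, 61.9 and 124 CPM in replicate 2 and 10.1, 25.7 and 30.3 CPM in replicate 3. It differed by −2.08 (SE 0.34, adjusted p = 0.00202) between replicate 3 and replicate 1. Rsad2, or viperin, which makes a chain-terminating nucleotide, stood at 53.8, 72.2 and 380.1 CPM in replicate 1, 9.57, 49.6 and 85.5 CPM in replicate 2 and 12.2, 17.4 and 25.2 CPM in replicate 3. Its log2 fold change against replicate 1 was −2.78 (SE 0.50, adjusted p = 0.00467). All 6 replicate 3 libraries of Ifi44, Bst2 and Rsad2 lay below all 6 of replicate 1. Oas1a, which makes the second messenger that activates RNase L, stood at 1.34, 15.0 and 26.9 CPM in replicate 1, 1.66, 15.9 and 25.6 CPM in replicate 2 and 0, 0.836 and 2.43 CPM in replicate 3. Against replicate 2 its fitted log2 fold change was −4.09 (SE 0.83, adjusted p = 0.00768), and its day 4 co-culture of replicate 3 held 0 reads. Its near copy Oas1g held 4045 reads against 5012 for Oas1a, so the split of reads between them is uncertain.

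The Mx proteins are GTPases that trap viral components. Mx1 in replicate 1 was at 0, 2.75 and 31.1 CPM alone and 0.664, 1.48 and 22.7 CPM with neurons. In replicate 2 Mx1 was at 3.17, 2.43 and 0.16 CPM alone and 10.2, 1.66 and 4.81 CPM with neurons. In replicate 3 Mx1 was at 0.599, 0.871 and 1.39 CPM alone and 0.555, 0.358 and 2.63 CPM with neurons. The highest Mx1 values were the day 7 libraries of replicate 1, of which the co-culture was poor, and Mx1 was not called between dates. Mx2 in replicate 1 was at 13.4, 31.5 and 45.7 CPM alone and 13.3, 17.6 and 63.2 CPM with neurons. In replicate 2 Mx2 was at 22.2, 19.0 and 4.76 CPM alone and 22.6, 17.66 and 17.3 CPM with neurons. In replicate 3 Mx2 was at 7.12, 7.66 and 7.04 CPM alone and 10.4, 1.85 and 6.74 CPM with neurons. All replicate 3 libraries of Mx2 lay below all of replicate 1, whose 13.4 CPM was 2 reads in the poor day 2 library and under its floor. Day 7 of replicate 1 again held the highest values, the higher of them, 63.2 CPM, in the poor co-culture. Cmpk2 is a nucleotide kinase of mitochondria encoded next to Rsad2. Cmpk2 in replicate 1 was at 60.5, 28.0 and 200.3 CPM alone and 37.3, 42.7 and 35.1 CPM with neurons. In replicate 2 Cmpk2 was at 66.4, 46.1 and 14.2 CPM alone and 60.4, 49.3 and 45.9 CPM with neurons. In replicate 3 Cmpk2 was at 24.7, 28.3 and 40.1 CPM alone and 29.4, 20.2 and 27.5 CPM with neurons. Replicate 1 alone at day 7 stood above every other library of Cmpk2. Of the others, Oasl2, a relative of the OAS enzymes, stood at 62.2, 235 and 326 CPM in replicate 1, 50.1, 287 and 383 CPM in replicate 2 and 32.5, 93.2 and 106 CPM in replicate 3 (lowest, median and highest). Oas2, another maker of that messenger, stood at 0, 5.81 and 14.2 CPM in replicate 1, 1.02, 9.03 and 9.68 CPM in replicate 2 and 0.954, 1.69 and 2.40 CPM in replicate 3. Ifit2, Samd9l, Eif2ak2 (the kinase PKR, which halts translation) and Rtp4 were not called between any dates. Their medians in replicates 1, 2 and 3 were 57.0, 61.3 and 48.6 CPM for Ifit2, and 81.1, 112 and 65.5 CPM for Samd9l. For Eif2ak2 they were 95.7, 137 and 98.6 CPM, and for Rtp4 74.5, 80.2 and 40.3 CPM.

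Of the 7 genes of the ISG15, ubiquitin and ADP-ribose system 5 were called lower in replicate 3 than in replicate 1 (Usp18, Isg15, Trim25, Herc6 and Dtx3l) and 5 than in replicate 2 (Isg15, Usp18, Dtx3l, Parp14 and Trim25), with medians of −1.06 and −1.01. Usp18 removes ISG15 from proteins and dampens signalling at the type I receptor. Usp18 in replicate 1 stood at 134, 109.9 and 140.2 CPM alone and 181, 110.5 and 145 CPM with neurons. In replicate 2 Usp18 was at 87.8, 61.9 and 18.7 CPM alone and 90.7, 69.4 and 55.8 CPM with neurons. In replicate 3 Usp18 was at 18.6, 14.8 and 22.3 CPM alone and 23.3, 32.5 and 39.8 CPM with neurons. Every library of replicate 1 lay above every library of the other dates. The log2 fold change of Usp18 against replicate 1, −2.48 (SE 0.31, adjusted p = 0.000257), had the smallest p of the 38 genes. In replicate 2 Usp18 differed from replicate 1 by −1.16 (SE 0.30, adjusted p = 0.0657), which was not called. Isg15, the ubiquitin-like modifier itself, had a lowest, median and highest value of 35.8, 39.7 and 85.9 CPM in replicate 1, 9.20, 43.5 and 107 CPM in replicate 2 and 3.70, 11.6 and 14.6 CPM in replicate 3. All its replicate 3 libraries lay below all of replicate 1, with a log2 fold change of −2.35 (SE 0.43, adjusted p = 0.00465), and against replicate 2 it was −2.28 (SE 0.44, adjusted p = 0.00547).

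Parp14 attaches ADP-ribose to proteins. Parp14 in replicate 1 measured 94.1, 155 and 178 CPM alone and 132, 152 and 58.5 CPM with neurons. In replicate 2 Parp14 was at 178, 147 and 58.7 CPM alone and 183, 132 and 178 CPM with neurons. In replicate 3 Parp14 was at 74.6, 59.5 and 34.6 CPM alone and 107, 87.5 and 37.6 CPM with neurons. The ranges of replicates 1 and 3 overlapped, and of replicate 2 the library alone at day 7 was the one that reached replicate 3. Dtx3l is a ubiquitin ligase that works as a pair with Parp9, its neighbour on the chromosome. Dtx3l in replicate 1 measured 101, 86.7 and 123 CPM alone and 118, 94.8 and 48.9 CPM with neurons. In replicate 2 Dtx3l was at 117, 93.3 and 42.4 CPM alone and 116, 91.0 and 100.1 CPM with neurons. In replicate 3 Dtx3l was at 55.2, 41.2 and 50.2 CPM alone and 58.6, 32.9 and 41.8 CPM with neurons. Replicate 3 of Dtx3l overlapped each other date through 1 library. Exons of Dtx3l and Parp9 share 458 bases on opposite strands, and whether counting used the strand is not given in the sources used here. Trim25 is the ubiquitin ligase that activates RIG-I. Trim25 in replicate 1 measured 60.5, 85.2 and 93.7 CPM alone and 100.3, 101 and 143 CPM with neurons. In replicate 2 Trim25 was at 104, 80.8 and 48.5 CPM alone and 93.2, 91.4 and 90.3 CPM with neurons. In replicate 3 Trim25 was at 48.7, 38.5 and 51.0 CPM alone and 60.7, 41.9 and 47.1 CPM with neurons. Trim25 overlapped replicate 1 only at its poor day 2 library and replicate 2 only at its library alone at day 7. Herc6, the ligase that attaches ISG15 in mice, stood at 60.5, 93.8 and 128 CPM in replicate 1, 30.1, 83.5 and 109.8 CPM in replicate 2 and 18.9, 43.1 and 57.7 CPM in replicate 3, without overlap between replicates 3 and 1. Parp9 stood at 6.56, 81.2 and 94.1 CPM in replicate 1, 31.4, 72.8 and 108 CPM in replicate 2 and 31.1, 35.2 and 49.7 CPM in replicate 3 and was called in neither comparison.

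Of the 3 antigen presentation genes B2m was called lower in replicate 3 against both other dates and Tap1 against replicate 2 alone, with medians of −0.9996 and −1.56. Tap1 is a part of the peptide pump of the endoplasmic reticulum. Tap1 in replicate 1 amounted to 47.1, 96.5 and 173 CPM alone and 186, 139 and 221 CPM with neurons. In replicate 2 Tap1 was at 260.5, 186 and 62.1 CPM alone and 291, 188 and 185 CPM with neurons. In replicate 3 Tap1 was at 53.7, 56.9 and 78.9 CPM alone and 103, 89.8 and 122 CPM with neurons. Co-culture libraries of Tap1 in replicate 3 were all higher than their partners. B2m is the light chain of every MHC class I molecule. B2m in replicate 1 amounted to 134, 213 and 233 CPM alone and 312, 293 and 379.6 CPM with neurons. In replicate 2 B2m was at 312, 360.1 and 129 CPM alone and 369.6, 474 and 505 CPM with neurons. In replicate 3 B2m was at 158, 88.1 and 77.1 CPM alone and 94.8, 57.8 and 84.7 CPM with neurons. The single higher value of replicate 3, alone at day 2, overlapped only the poor library of replicate 1 and replicate 2 alone at day 7. Against replicate 2 the log2 fold change of B2m was −1.87 (SE 0.30, adjusted p = 0.00179). Psmb9 is an interferon-induced subunit of the immunoproteasome. Psmb9 in replicate 1 amounted to 6.72, 7.12 and 15.8 CPM alone and 15.97, 8.14 and 29.8 CPM with neurons. In replicate 2 Psmb9 was at 30.1, 15.4 and 4.01 CPM alone and 39.2, 14.7 and 22.4 CPM with neurons. In replicate 3 Psmb9 was at 4.68, 3.94 and 6.65 CPM alone and 2.34, 13.1 and 12.2 CPM with neurons. Psmb9 overlapped between all dates and was called in neither comparison. Its exons share 212 bases with the neighbouring Tap1 on the other strand.

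Of the 3 other induced genes, Xaf1 and Ifi35 were called lower in replicate 3 than in replicate 1 and Xaf1 than in replicate 2, with medians of −1.66 and −1.26. Lgals3bp is a secreted glycoprotein that binds galectins. Lgals3bp in replicate 1 ranged over 141, 151 and 267 CPM alone and 336, 244 and 109.8 CPM with neurons. In replicate 2 Lgals3bp was at 379, 229 and 61.6 CPM alone and 429, 377 and 256 CPM with neurons. In replicate 3 Lgals3bp was at 141, 93.1 and 136 CPM alone and 169, 127 and 174 CPM with neurons. Its replicate 3 libraries overlapped those of replicate 1 and lay below 5 of the 6 of replicate 2. Xaf1 is an antagonist of inhibitors of cell death. Xaf1 in replicate 1 covered 13.4, 30.3 and 43.3 CPM alone and 47.2, 35.3 and 171 CPM with neurons. In replicate 2 Xaf1 was at 40.5, 40.5 and 8.08 CPM alone and 61.3, 35.1 and 26.7 CPM with neurons. In replicate 3 Xaf1 was at 11.1, 7.75 and 11.2 CPM alone and 12.6, 7.04 and 11.3 CPM with neurons. The lowest value of Xaf1 in replicate 1, 13.4 CPM, was 2 reads in the poor day 2 library and under its floor. The other 5 libraries of replicate 1, from 30.3 CPM up, lay above all of replicate 3, and the highest of all was the poor day 7 co-culture. Ifi35 is an interferon-induced leucine zipper protein. Ifi35 in replicate 1 covered 6.72, 15.5 and 16.3 CPM alone and 24.1, 17.004 and 86.7 CPM with neurons. In replicate 2 Ifi35 was at 16.4, 18.2 and 10.7 CPM alone and 34.1, 12.1 and 15.0 CPM with neurons. In replicate 3 Ifi35 was at 6.10, 4.58 and 7.27 CPM alone and 7.81, 7.93 and 11.53 CPM with neurons. The poor day 7 co-culture of replicate 1 was again the highest. An antisense gene, Gm11626, shares 290 exon bases with Ifi35. Over all 6 roles, the members called against neither date were Cmpk2, Ddx58, Ddx60, Eif2ak2, Ifit2, Irf1, Irf9, Lgals3bp, Mx1, Oas2, Parp9, Psmb9, Rtp4 and Samd9l.

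Counted by overlap, all 6 libraries of replicate 3 lay below all 6 of replicate 1 for 12 of the 38 genes (1.14% of all genes), and below all 6 of replicate 2 for 1. Among the 12, Mx2 and Xaf1 each had a value under the floor in the poor day 2 library of replicate 1. Replicate 2 lay below replicate 1 without overlap for 2 of 38 (1.19%). Without the poor libraries, replicate 3 lay below the 4 remaining libraries of replicate 1 for 27 of 38 (4.44% of all genes). Leaving out replicate 2 alone at day 7, it lay below the other 5 of replicate 2 for 32 of 38 (5.9%). Members were also split by an ISRE match, leaving out those without a promoter at hand. Against replicate 1, 10 of 13 with a match were called lower, with a median of −1.49, and 7 of 16 without, with a median of −1.02 (1.9% of all genes). Against replicate 2 both groups had 7 called genes, of 13 and of 16, with medians of −1.46 and −1.13 (2.48% of all genes were called lower). The difference between genes with and without a match was not tested.

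Astrocytes alone at day 7 in replicate 2 stood apart from the rest of their date. This library had 15945803 reads, a TMM factor of 1.17 and a read in 98.7% of the tested genes, so it was not poor by these measures. For 37 of the 38 genes its value lay below those of the other 5 libraries of replicate 2 (22.1% of all genes), the exception being Samd9l. It fell within or below the range of replicate 3 for 36 genes, and above that range for Irf1 and Samd9l. Cmpk2, Ifit3, Lgals3bp, Mx1 and Rsad2 had their lowest value of the 16 libraries here. From day 4 to day 7 alone, 37 of 38 genes were lower in replicate 2, 29 of them by more than 1 log2 unit, with a median difference of −1.71, whereas 52.1% of all genes were lower and 9.35% by that much. The same step was up for most members at the other dates: 6 of 38 were lower in replicate 1 (median 0.44) and 10 of 38 in replicate 3 (median 0.48). With 1 library behind it, the low value has no replicate check. Its summed microglia and astrocyte markers, 265 and 2275 CPM, lay within the ranges of the other replicate 2 libraries. Its neuronal sum, 155 CPM against 54.9 to 91.8 CPM, was the highest of the date, and its endothelial and mural sum, 59.4 CPM against 69.7 to 97.9 CPM, the lowest. Its most abundant gene took 16.7% of the reads, against 5.35% to 11.8% in the other 5. Their part in the low values was not tested.

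**Figure D4:**
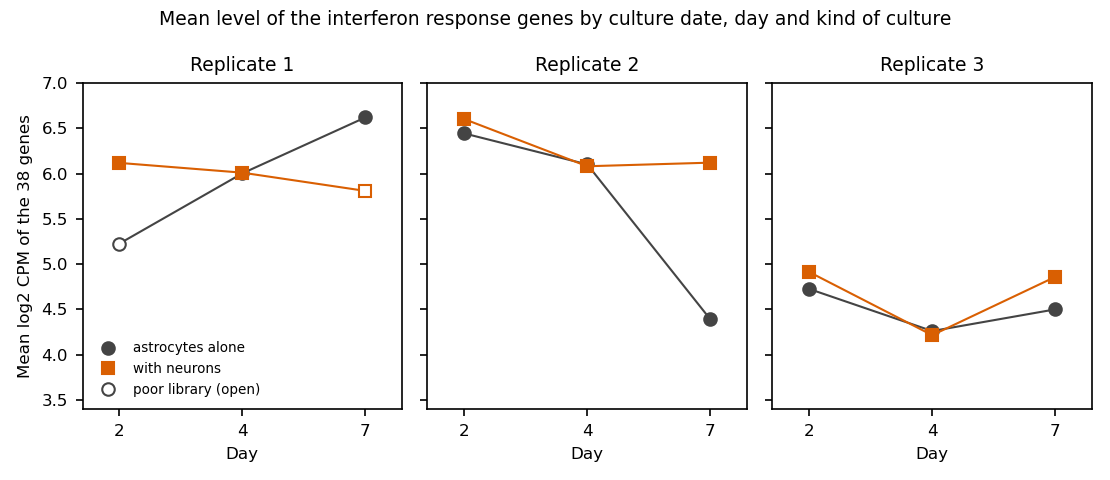
Mean log2 CPM of the 38 genes in each library against day, with a panel for each replicate number; grey circles are astrocytes alone, orange squares co-cultures, open symbols the 2 poor libraries. Replicate 3 stays between 4.22 and 4.91, and the day 7 library alone of replicate 2 is at 4.39.

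Co-culture with neurons was compared with astrocytes alone at each day and on average over the days, in edgeR's quasi-likelihood model with 6 group means. This model held no replicate block, so the SEs given for it include the spread between dates. No member was called at day 2, 4 or 7 or on average, and of all 16539 genes 0% were called in each of the 4 comparisons. At an unadjusted p under 0.05 there were 0, 0, 1 and 1 members, both times Ifi35, against 2.35%, 0.369%, 9.37% and 4.17% of all genes. DESeq2 called 22 genes at day 2, 5 at day 7 and none at day 4 or on average, with no member among them. The ranges of the 3 co-culture and 3 partner libraries overlapped for every one of the 38 genes at each day. Upper-quartile scaling moved the median of all genes by −0.11 at day 2, −0.15 at day 7 and −0.11 on average, and with it 28, 17, 22 and 21 of the 38 were fitted higher at days 2, 4 and 7 and on average, so the counts of genes fitted higher that follow depend on the scaling. Over all genes, the co-cultures lay wholly lower or wholly higher for 2.27% and 3.26% at day 2, 3.92% and 2.05% at day 4 and 5.58% and 4.29% at day 7.

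At day 2, 33 of the 38 genes were fitted higher with neurons (53.3% of all genes), with a median log2 fold change of 0.28 against 0.040 over all genes. This count rested on single libraries, being 17 without the day 2 co-culture of replicate 2 and 19 without astrocytes alone at day 2 of replicate 3. The smallest p values were those of Irf9, Ifi35, Ifit3 and Tap1. Irf9 had a log2 fold change of 0.51 (SE 0.36, adjusted p = 1) and Ifi35 of 1.05 (SE 0.78, adjusted p = 1). Ifit3 had 0.69 (SE 0.68, adjusted p = 1) and Tap1 0.60 (SE 0.60, adjusted p = 1). For Irf9 and Tap1 the co-culture library was the higher of its pair at all 3 dates, in replicate 1 against the poor library. That pair gave their largest differences, 1.28 and 1.98 log2 units, where the median over all genes was 0.63. For Ifi35 the co-culture was higher in replicates 2 and 3, and the partner in replicate 1 was under the floor. Higher in all 3 pairs were 11 members (15.2% of all genes), Dhx58, Ifi35 and Xaf1 with a partner under the floor among them, and 0 were lower in all 3 (8.48%). Without the pair that holds a poor library, 16 were higher in both remaining pairs (22% of all genes) and 3 lower (27.8%). Without the poor libraries 30 of 38 were fitted higher at day 2, and 18, with a median of −0.017, when the replicate number was also a block.

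At day 4, 22 of 38 were fitted higher (48.6% of all genes), with a median of 0.040 against −0.014. The count was 3 without astrocytes alone of replicate 3, 9 and 12 without the co-cultures of replicates 2 and 1, and 35 without the co-culture of replicate 3. The secreted Lgals3bp had the smallest p, with a log2 fold change of 0.66 (SE 0.56, adjusted p = 1). Mx2 stood at −0.65 (SE 0.91, adjusted p = 1), Mx1 at −0.78 (SE 1.38, adjusted p = 1) and Psmb9 at 0.44 (SE 0.82, adjusted p = 1). Of the 38 genes 7 were higher in all 3 pairs (10.7% of all genes) and 7 lower in all 3 (14.8%). The poor libraries are not among those of day 4.

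At day 7, 24 of 38 were fitted higher (50.2% of all genes), with a median of 0.25 against 0.0041 over all genes. The median was −0.37 without the library alone of replicate 2, and the count was 37 without that of replicate 1. Ifi35 had a log2 fold change of 1.72 (SE 0.74, adjusted p = 0.49) and Xaf1 of 1.73 (SE 0.93, adjusted p = 0.576). Both values moved with the poor co-culture library of replicate 1, without which Xaf1 stood at −0.13 and Ifi35 at 0.21. Cmpk2 had −1.23 (SE 0.66, adjusted p = 0.574), and 0.41 without the library alone of replicate 1, in which it was highest. B2m had 1.14 (SE 0.73, adjusted p = 0.659) and was higher with neurons in 3 of 3 pairs, of which that of replicate 1 holds the poor co-culture. In every pair 11 members were higher (14.2% of all genes) and 0 lower (15.8%), and without the pair that holds a poor library 29 were higher (32%) and 0 lower (23.4%). These remaining pairs include the low library alone of replicate 2. Without the poor libraries 23 of 38 were fitted higher at day 7, with a median of 0.090, and 30 when the replicate number was also a block. On average over the days 27 of 38 were fitted higher (52.6% of all genes), with a median of 0.24 against 0.025, and 28 without the poor libraries, with a median of 0.10. The smallest p values belonged to Ifi35, 0.91 (SE 0.43, adjusted p = 0.982), Tap1, 0.55 (SE 0.34, adjusted p = 0.982), Xaf1, 0.83 (SE 0.54, adjusted p = 0.982), and B2m, 0.60 (SE 0.42, adjusted p = 0.982).

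By role, the antigen presentation genes Tap1, B2m and Psmb9 were the group with all members fitted higher with neurons at each day, with medians of 0.33, 0.32 and 1.14 at days 2, 4 and 7. The 3 other induced genes had medians of 0.77, −0.018 and 1.72, and the 16 effectors 0.16, −0.027 and 0.15. Sensors had 0.46, 0.044 and −0.024, transcription factors 0.35, 0.036 and −0.16, and the ISG15 system 0.23, 0.041 and 0.41. None of these genes was called, and no test compared the roles. In single pairs the antigen presentation genes did not all point one way: in replicate 3 at day 2 B2m and Psmb9 were lower with neurons, by −0.73 and −0.98 log2 units, and B2m at day 4 by −0.61. Without replicate 2 the difference of B2m at day 7 was 0.53. The summed microglial markers were also higher with neurons in some of these pairs. In replicate 2 they were 352 against 165 CPM at day 2, 212 against 220 CPM at day 4 and 553 against 265 CPM at day 7. In replicate 3 they were 40.7 against 40.8 CPM, 58.3 against 37.6 CPM and 47.8 against 51.0 CPM at these days. In replicate 1 they were 73.1 against 67.2 CPM at day 2, with a poor partner, and 113 against 84.0 CPM at day 4. At day 7 of replicate 1 they were 345 against 37.5 CPM, with a poor co-culture. In that co-culture Cx3cr1, Csf1r and C1qa had 1 read each, and P2ry12, Tmem119 and Aif1 had 0. The part of these markers in the differences was not tested.

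Within pairs of 1 date and day, 1 pair stood apart. In replicate 2 at day 7 all 38 genes were higher with neurons than in the partner kept alone, 29 of them by more than 1 log2 unit, with a median difference of 1.64. In that pair 51.8% of all genes were higher and 9.85% by more than 1. Here the low side is the library alone at day 7 described above. In replicate 2 at day 2 24 of 38 were higher (median 0.055), and at day 4 17 were (median −0.053). In replicate 3 the pairs of days 2, 4 and 7 had 27, 21 and 29 of 38 higher, with medians of 0.25, 0.12 and 0.30, where 48.2%, 42.9% and 56.6% of all genes were higher. In replicate 1 they had 29, 24 and 13, with medians of 0.65, 0.030 and −0.60. The first and last of these hold a poor library each, and over all genes their medians were 0.63 and −0.64. Pairs are single libraries and were not tested one by one.

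**Figure D5:**
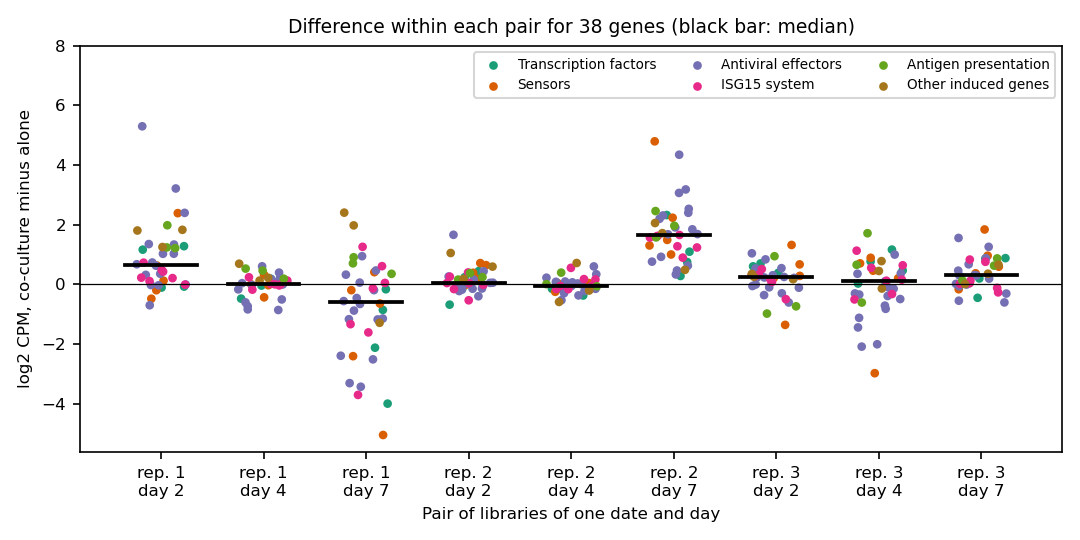
For each of the 9 pairs, points are the 38 genes, coloured by role, and the black bar their median; the vertical axis is log2 CPM with neurons minus log2 CPM alone. All 38 points of replicate 2, day 7 lie above 0, with a median of 1.64, and the medians of the pairs without a poor library otherwise lie between −0.053 and 0.30.

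The change over time and the dependence of the co-culture effect on time were tested in the same model, and called no member and 0% of all genes. No member had an unadjusted p under 0.05 from day 2 to day 7, where 1.11% of all genes did alone and 13.2% in co-culture. The ranges of the days overlapped for all 38, whereas they lay wholly lower or wholly higher at day 7 for 2.58% and 4.66% of all genes alone and for 5.42% and 4.92% in co-culture. From day 2 to day 7, 11 of 38 were fitted higher alone (51% of all genes), with a median of −0.19, and 15 of 38 in co-culture (51.2%), with a median of −0.15. Alone, the direction rested on single libraries: 0 members were fitted higher without replicate 1 at day 7 and 5 without replicate 3 at day 2, but 26, 21 and 22 without replicate 2 at day 2, replicate 2 at day 7 and replicate 3 at day 7. In co-culture the count was 10 with upper-quartile scaling, 5 without replicate 1 at day 7, which is a poor library, and 8 without replicate 3 at day 2. Without both poor libraries the counts were 10 alone and 5 in co-culture, and 7 alone and 12 in co-culture when the replicate number was also a block. Irf7 had a log2 fold change of −1.81 (SE 0.94, adjusted p = 1) alone and −1.91 (SE 0.93, adjusted p = 0.386) in co-culture. Alone, Mx1 had 2.62 (SE 1.57, adjusted p = 1), Isg15 −1.54 (SE 0.98, adjusted p = 1) and Ifit2 0.70 (SE 0.48, adjusted p = 1). In co-culture, Stat2 had −1.05 (SE 0.55, adjusted p = 0.412), Parp9 −1.08 (SE 0.63, adjusted p = 0.465) and Lgals3bp −0.79 (SE 0.56, adjusted p = 0.561).

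No member passed the test for a co-culture effect that differed between days, again in the model without a replicate block. For day 4 against day 2, 7 of 38 differences were fitted higher (46.7% of all genes), with a median of −0.24. For day 7 against day 2 there were 18 (51.9%), with a median of −0.024, and for day 7 against day 4 23 (53.6%), with a median of 0.21. These counts have no stable direction. With a library or a replicate left out they ran from 0 to 22, from 5 to 35 and from 12 to 38. The first was 0 without replicate 2 of the day 2 library alone and 22 without replicate 1 of the day 4 library alone. The second was 5 without replicate 2 of the day 2 library alone, and 34 without replicate 1 of the day 7 library alone, where the last was 37. Without the poor libraries they were 11, 14 and 20, and with the block as well 22, 28 and 30. No member had an unadjusted p under 0.05 in any of the 3, where 1.06%, 5.47% and 3.07% of all genes did. The smallest p values of the first were those of Ifi35, −1.10 (SE 1.06, adjusted p = 1), Mx1, −1.88 (SE 2.04, adjusted p = 1), Ifitm3, −0.64 (SE 0.73, adjusted p = 1), and Irf9, −0.40 (SE 0.50, adjusted p = 1). For day 7 against day 2 they belonged to Ifit3, −1.18 (SE 0.95, adjusted p = 0.958), Isg15, 1.496 (SE 1.35, adjusted p = 0.958), Cmpk2, −1.02 (SE 0.94, adjusted p = 0.961), and Stat2, −0.84 (SE 0.78, adjusted p = 0.961). For day 7 against day 4 they belonged to Ifi35, 1.77 (SE 1.03, adjusted p = 1), Cmpk2, −1.36 (SE 0.92, adjusted p = 1), Xaf1, 1.75 (SE 1.29, adjusted p = 1), and Mx2, 1.24 (SE 1.28, adjusted p = 1). Without the poor day 7 library the last difference was −0.12 for Xaf1 and −0.031 for Mx2. Without the day 7 library alone of replicate 1 the differences of Cmpk2 were 0.61 against day 2 and 0.27 against day 4.

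The rest of the pathway was followed in a list of 56 further genes, of which 51 passed the filter. The interferons themselves had few or no reads. Ifng and Ifne had 0 reads in all 18 libraries, Ifnb1 had 1, 6 and 0 reads in replicates 1, 2 and 3, Ifna2 9, 0 and 0, and Ifna4 1, 0 and 0. Ifnar1, a chain of the type I receptor, had log2 fold changes in replicate 3 of −0.23 (SE 0.23) against replicate 1 and −0.26 (SE 0.23) against replicate 2. Its partner Ifnar2 had 0.012 (SE 0.44) and −0.53 (SE 0.42). Ifngr1, the ligand-binding chain of the gamma receptor, was called lower against replicate 1 (−1.09, SE 0.28, adjusted p = 0.035) but not against replicate 2 (−0.63, SE 0.27). Irf3, the factor that switches on interferon beta, had −0.12 (SE 0.25) and −0.14 (SE 0.24), and Mavs, the relay of the RNA sensors, −0.65 (SE 0.26) and −0.22 (SE 0.25). Of Ifnar1, Ifnar2, Irf3 and Mavs, none was called between dates.

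Of the 51 tested pathway genes 8 were called lower in replicate 3 than in replicate 1 (1.9% of all genes) and 12 than in replicate 2 (2.48%), with none called higher. Fitted lower were 43 and 51 of the 51, with medians of −0.73 and −0.91, against −0.019 and −0.043 over all genes. In fits chosen after the data were seen, 0 were called in either comparison without day 2 or without day 4, 18 and 28 without day 7, and 15 and 18 without the poor libraries. Of all genes, 2.88% and 4.53% were called lower without the poor libraries, and the share without day 7 is not given here. Most of those named are further interferon-induced GTPases and MHC genes. Irgm1, a GTPase of vacuole defence, had −1.72 (SE 0.26, adjusted p = 0.000999) and −1.18 (SE 0.25, adjusted p = 0.0107). Ifi47, a GTPase of the same family, had −3.93 (SE 0.74, adjusted p = 0.0058) and −4.06 (SE 0.73, adjusted p = 0.00352). Trim30a had −1.49 (SE 0.27, adjusted p = 0.00493) and Tor3a −1.51 (SE 0.30, adjusted p = 0.00831) against replicate 1. H2-D1, an MHC class I heavy chain, had −2.22 (SE 0.36, adjusted p = 0.00179), and Gbp3 −1.73 (SE 0.36, adjusted p = 0.00869) against replicate 2. No pathway gene was called between co-culture and astrocytes alone at any day, over time or for the difference between days.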

How the data were processed

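RNA was measured in 18 libraries of sorted mouse astrocytes, 6 groups of 3. The authors deposited 1 table of raw counts per Entrez gene for 26301 genes, 24191 of them with a symbol. Reads had been aligned with Subread and counted with featureCounts on mm9, per the submitters' processing notes; neither versions nor the strand setting are stated there, and overlapping and near-identical genes may share counts. That file also holds 17 columns of correlations, which were not used. The deposited counts were tested as they stood with edgeR 4.0.16 in R 4.3.3 (TMM scaling, filterByExpr by group, quasi-likelihood test, Benjamini-Hochberg adjustment over 16539 genes, called under 0.05). The model held 6 group means without a block, and for the comparisons of dates the groups and the replicate number. Standard errors are the log2 fold change divided by the square root of F, and log2 CPM used a prior count of 2. The alternatives were a replicate block, leaving out the 2 poor libraries, DESeq2 1.42.0, RLE and upper-quartile scaling, no filter on low counts, a fit of only the groups compared, and leaving out each replicate, library or day. For the pathway genes and for the counts over pairs, leaving out days, poor libraries or their pairs was chosen after seeing the data.

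The labels give the libraries of a replicate number the same date. Libraries of the same number and day deviated together from their group means, with correlations of 0.108 to 0.469 over 9 pairs. Between numbers of the same day they were −0.346 to −0.0102. Deviations cancel out within a group, so positive values within a number bring negative ones between numbers, and the ranges are not independent. No label shows that replicates came from separate animals, so p-values cover the spread between these libraries, which may be technical. None of the 18 pairs of libraries within a group agreed within sampling noise, and pairs from different groups were not checked for this. The 38 genes, their roles, the pathway list and the marker lists were chosen with earlier results of these data known, so nothing here is independent support for the choice. Every member was accounted for by counts and ranges. Fold changes were given for called members, at most 6 by smallest p, and otherwise for the 4 with the smallest p. Values in every library were given for the 3 most abundant members of each role, for Stat2, Irf7, Irf9 and Usp18, and for most members with a fold change in a co-culture comparison. Genes outside this rule (Irf1, Ifi44, Bst2 and others shown by range) were described after their values were seen. Of the pathway list, Ifnar1, Ifnar2, Ifngr1, Irf3 and Mavs were named throughout, with at most 4 called genes per comparison. Exon lengths came from GENCODE and promoters from RefSeq, both on GRCm38, and no coordinates were carried between builds. The test was checked on simulated counts with known changes.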

Additional observations from a re-analysis of the deposited data

How the results depend on the processing

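The median of the members stayed below 0 in replicate 3 under every alternative run, at −1.57 to −1.12 against replicate 1 and −1.58 to −1.06 against replicate 2, but the number called did not. Against replicate 1 (21 called) it was 26 without the 2 poor libraries and 28 with DESeq2. It ranged from 1 (without day 2 or day 4) to 28 when a day was left out and from 12 (without the day 4 library alone of replicate 3) to 26 when a library was. Against replicate 2 (18 called) it was 29 without the poor libraries, 29 with DESeq2, 0 without day 2, 0 without day 4 and 35 without day 7, and it ranged from 7 to 31 with a library left out. Between replicates 2 and 1 (0 called) DESeq2 called 2, RLE scaling 1 and the fit without day 7 3, and leaving out a library gave 0 to 1. For DESeq2, RLE scaling, the fit without day 7 and those without a library, the share of all genes called between dates is not given here.

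With the replicate number as a block, 0 members were called in every comparison of co-culture, time or their interaction, and the block changed no call. Named members that turned direction rested on single libraries, and none of them was called. Without the poor libraries Xaf1 stood at −0.15 at day 7 and at −0.11 for the effect at day 7 against day 4, and Mx2 at −0.012 for the latter. With replicates or libraries left out, Xaf1 ranged from −0.13 to 2.84 at day 7 and from −0.12 to 2.85 for that effect, and Mx2 from −0.031 to 2.92. Cmpk2 ranged from −1.99 to 0.41 at day 7, from −1.78 to 0.61 for the effect at day 7 against day 2 and from −2.10 to 0.46 against day 4. From day 2 to day 7 alone, Mx1 ranged from −1.16 to 4.79, Isg15 from −2.39 to 0.072 and Ifit2 from −0.39 to 1.23. Mx1 ranged from −3.48 to 0.73 for the effect at day 4 against day 2. The cause of these shifts was not tested. Upper-quartile scaling moved the median of all genes at day 7 by −0.15. The poor libraries limit what days 2 and 7 can show.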
